A study of Mus musculus with 45 samples.

Results

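The genes described here are 36 genes of fatty acid uptake, fatty acid oxidation and its transcriptional control, taken by gene symbol from 19432 genes listed for mouse heart; all 36 were found and passed the filter on low values at every time. They were measured in 45 RNA sequencing libraries of whole hearts, in 12 groups. The study compared wild-type hearts (WT) with hearts whose cardiomyocytes overexpressed ERBB2 for a limited time (OE). ERBB2 is a membrane receptor kinase that pairs with the receptors of neuregulin. Each genotype had sham treatment or an injury labelled MI, and hearts were collected while ERBB2 was overexpressed (T1) or 2 weeks (T2) or 4 weeks (T3) after that had ended. A group held 4 libraries, or 3 in the case of OE sham T3 and of the MI groups of T2. The sources used here do not state age, sex, strain, the promoter that drives the transgene, how it is switched off or when the injury was made. No label says that the numbered libraries of a group came from separate animals. Over 63 pairs of libraries of the same group the lowest chi-square per gene was 4.41, a spread above that of counting reads alone. Whether the spread behind each p-value lies between animals or is technical in another way was not tested.

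Fatty acids are the main fuel of the adult heart. Lipoprotein lipase frees them from circulating triglyceride, CD36 and other carriers bring them into the cardiomyocyte, acyl-CoA synthetases activate them, and the carnitine shuttle moves them into mitochondria. There the beta-oxidation spiral shortens them stepwise and passes electrons through the electron transfer flavoprotein to the respiratory chain. Nuclear receptors of the PPAR and ERR families, with PGC-1 coactivators, switch on many of these genes as the heart matures.

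Erbb2 checked the labels: at T1 it stood at 246 ± 3.28 normalized counts (SD, n = 4) in WT sham hearts and at 1697 ± 692 in OE sham hearts, with 203 ± 20.98 and 283 ± 16.9 at T2, and 204 ± 22.2 and 237 ± 2.56 (n = 3 in OE) at T3. OE sham libraries thus still lay above WT sham libraries at T2 (270.59 to 307.95 against 172.2 to 217.59) and T3 (235.02 to 239.63 against 173.82 to 222.22). In MI hearts they did so at T2 (267.85 to 325.34 against 227.34 to 248.5) and overlapped at T3. The part of this remainder in the T2 and T3 differences was not tested. Libraries held 14199741 to 19015856 reads. The cardiomyocyte markers Myh6 and Tnnt2 were high in every library, at no less than 136891 and 90575 normalized counts, as fits the labelled tissue. Values below are normalized counts as deposited, and each difference is a log2 fold change with its SE, computed on log2(normalized count + 1). "Rose" and "fell" are used of genes with an adjusted p under 0.05 in limma's test over all genes. Overlap between the libraries of groups was not counted over all genes, so it describes single genes only. The 16 libraries of T1 and the 29 of T2 and T3 were normalized separately, so levels set side by side across those times are not on 1 scale.

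**Figure D1:**
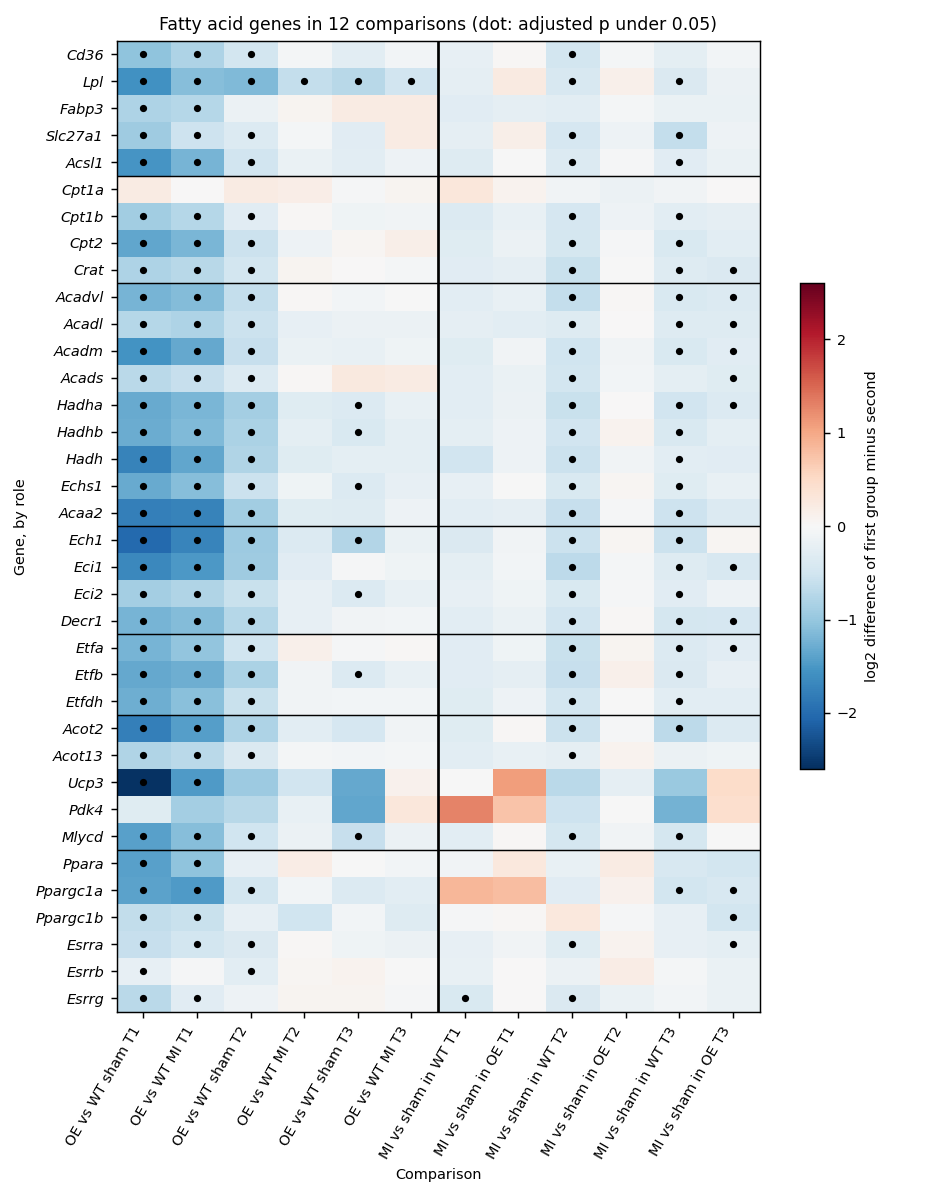
Heat map of the log2 difference for 36 genes (rows, by role) in 12 comparisons (columns), where blue is lower and red higher in the first-named group and a dot marks a limma adjusted p under 0.05. The OE against WT columns of T1 are blue in nearly every row, with 34 dots in sham and 33 in MI hearts, and Lpl is dotted in all 6 of those columns.

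During overexpression almost the whole program was lower. In sham hearts at T1, 34 of the 36 genes fell and 0 rose, where 23.3% of all 15375 genes tested were called lower and 24% higher. The median log2 difference was -1.25 over the 36 genes and 0.0145 over all genes tested. Together the 36 genes supplied 2.83% ± 0.303 (SD, n = 4) of reads on nuclear genes in WT sham and 1.29% ± 0.13 in OE sham, and the libraries did not overlap. All 5 genes of uptake and activation fell, as did all 9 of the beta-oxidation spiral, all 4 auxiliary enzymes of unsaturated fatty acids, all 3 of electron transfer and all 6 regulators. The exceptions were Cpt1a and Pdk4, which limma did not call.

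Values that move with this fall stand beside it. In the same comparison 8 of 12 cardiomyocyte markers fell and 1 rose (median -0.72), and their summed count was 1164640 to 1334740 in WT sham and 785174 to 941918 in OE sham. Of 10 fibroblast and matrix markers 9 rose, with sums of 37883 to 43060 in WT and 165601 to 200909 in OE. Of 8 macrophage markers 5 rose, with sums of 5566 to 7279 and 7474 to 9681. Of 8 endothelial markers 3 fell (20112 to 23718 in WT, 16793 to 20659 in OE), and 0 of 6 adipocyte markers were called, with sums of 515.5 to 3657 and 523.6 to 2535. Of 5 erythroid markers tested 5 fell, with sums of 1586 to 3496 and 228.3 to 1441. Mitochondrially encoded transcripts took 26.1% of reads in WT sham and 17.8% in OE sham. In whole-heart RNA fewer cardiomyocytes and less RNA of a gene per cardiomyocyte cannot be told apart, and the part of these shifts in the fall of the 36 genes was not tested.

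The first step is uptake and activation. Lpl (chromosome 8, 68880491 to 68907448 in GRCm38, plus strand), which encodes lipoprotein lipase, had normalized counts of 96761, 108670, 72469 and 85541 in the 4 WT sham libraries and of 25415, 33201, 31380 and 31357 in the 4 OE sham libraries. The groups lay far apart, and OE stood at 33.4% of WT (-1.57 ± 0.16, limma adjusted p = 1.8e-06). Acsl1, the acyl-CoA synthetase that activates long-chain fatty acids in heart, had 23699, 26744, 22603 and 22711 counts in WT and 7206, 6747, 9475 and 9827 in OE, with no overlap (-1.54 ± 0.13, limma adjusted p = 4.16e-07). The membrane transporter gene Cd36 was at 49.0% of WT (-1.04 ± 0.12), the transport protein gene Slc27a1 at 51.8% (-0.93 ± 0.16) and Fabp3, the fatty acid binding protein of the cardiomyocyte cytosol, at 57.0% (-0.80 ± 0.12). Levels per kilobase used all annotated exons joined, 823 bases in Fabp3 and 10478 in Lpl, so their ranking depends on the annotated isoforms. By that measure Fabp3 had the highest WT sham level of the 36 genes, 26330 ± 3461 normalized counts. Of its exon bases 19.6% lie opposite exons of other genes, as do 9.91% of those of Acsl1, and their counts are uncertain to that extent.

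The carnitine shuttle begins with either of 2 isoforms. Cpt1b encodes the muscle form of carnitine palmitoyltransferase 1, which makes acylcarnitine at the outer mitochondrial membrane, and Cpt1a its liver form, prominent in fetal heart. Cpt1b had 954.5, 1143, 1005 and 986.9 counts in WT sham and 484.4, 491.6, 579.1 and 635.8 in OE sham at T1 (-0.90 ± 0.12, limma adjusted p = 2.1e-05). Cpt1a had 914.8, 985.5, 1307 and 931.8 in WT and 1193, 959.2, 1344 and 1260 in OE, so the groups overlapped and the difference of 0.20 ± 0.13 was not called (limma adjusted p = 0.21). With reads scaled by library totals it was called higher (0.51 ± 0.14, limma adjusted p = 0.00505). The log2 ratio of Cpt1a over Cpt1b, which does not depend on the scaling of a library, was 0.005 ± 0.26 (SD, n = 4) in WT sham and 1.11 ± 0.17 in OE sham, with no overlap (exact two-sided permutation p = 0.0286, the smallest this design allows; adjusted p = 0.0858 over 6 OE against WT pairs). The Cpt1b counts that fell enter this ratio, so its p-value is not separate from their fall. The ratio was 0.50 ± 0.15 and 1.01 ± 0.06 in sham hearts at T2, also without overlap and with the same exact permutation p and adjusted p. MI hearts at T1 had ratios of 0.65 ± 0.26 (WT) and 1.39 ± 0.41 (OE) (exact permutation p = 0.0571, adjusted p = 0.114). In the other 3 pairs the OE mean was above the WT mean by 0.083 to 0.151 and the groups overlapped (exact permutation p = 0.457 to 0.6, adjusted p = 0.583 to 0.6). In sham hearts at T1 the mean sum of cardiomyocyte markers was 1252200 in WT and 871010 in OE. That of fibroblast and matrix markers was 40691 and 184260. In whole-heart RNA an isoform change within cells and a change in cell mix cannot be told apart in this ratio.

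Of the exon bases of Cpt1b 81.4% are shared, on the same strand, with the annotated gene Gm44502, which has no row of its own here, so how reads were split between them is unknown and the count of Cpt1b is uncertain. The inner-membrane enzyme gene Cpt2 had 5090, 6494, 4712 and 4348 counts in WT sham and 1769, 1749, 2112 and 2406 in OE sham (-1.36 ± 0.16, limma adjusted p = 5.09e-06). The 4 OE libraries were all under every WT library. Crat, carnitine acetyltransferase, stood at 56.5% of WT (-0.81 ± 0.13), and 8.72% of its exon bases lie opposite other exons.

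The 9 genes of the beta-oxidation spiral stood at 29.5% to 61.5% of WT. Echs1, the short-chain enoyl-CoA hydratase, had the smallest p of the 36 genes: 6379, 7657, 6529 and 6263 counts in WT sham against 2437, 2843, 2767 and 2686 in OE sham (-1.32 ± 0.10, limma adjusted p = 1.21e-07). Acadvl, the very-long-chain acyl-CoA dehydrogenase, had 10229, 12770, 10186 and 10173 in WT and 4099, 4673, 4889 and 5013 in OE (-1.21 ± 0.11). Neither gene's groups overlapped, although 42.9% of Acadvl exon bases lie opposite exons of Dvl2, and no source used here says whether reads were counted by strand. Hadha and Hadhb encode the subunits of the mitochondrial trifunctional protein. Hadha had 32208, 43986, 31836 and 30079 counts in WT and 12351, 12989, 14825 and 15147 in OE, and Hadhb 6312, 8208, 6299 and 5980 against 2422, 2744, 2855 and 2952. Their differences were nearly alike, -1.31 ± 0.14 and -1.28 ± 0.12.

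Among the chain-length dehydrogenases the medium-chain gene Acadm fell furthest (33.9% of WT, -1.55 ± 0.14), with 23734, 28642, 21054 and 20307 counts in WT and 6837, 7638, 8493 and 8820 in OE. Long-chain Acadl (59.3%, -0.75 ± 0.10) and short-chain Acads (61.5%, -0.70 ± 0.10) fell less; the difference between them and Acadm was not tested. Acads had 4195, 4772, 3667 and 4029 counts in WT and 2423, 2483, 2744 and 2590 in OE. Hadh, the hydroxyacyl-CoA dehydrogenase of medium and short chains, had 9734, 9455, 11247 and 11503 in WT and 2780, 2476, 4121 and 3485 in OE (-1.73 ± 0.17). Acaa2, a mitochondrial thiolase, had the largest fall of the spiral (29.5% of WT, -1.77 ± 0.18).

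Double bonds in natural fatty acids need isomerases and a reductase. Ech1, a dienoyl-CoA isomerase, had 22420, 31247, 20973 and 20073 counts in WT sham and 4683, 5620, 6407 and 6591 in OE sham, 24.6% of WT (-2.01 ± 0.19, limma adjusted p = 8.84e-07). Eci1, an enoyl-CoA isomerase, had 4525, 4905, 4048 and 4049 in WT and 1096, 1353, 1436 and 1642 in OE (-1.67 ± 0.13, limma adjusted p = 2.02e-07). Both were lower in every OE library than in every WT library, while Eci2 (-0.87 ± 0.08) and the reductase gene Decr1 (-1.22 ± 0.15) fell less far.

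Etfa and Etfb encode the subunits of the electron transfer flavoprotein, and Etfdh the dehydrogenase that hands its electrons to ubiquinone. Etfa had 7597, 8926, 7911 and 7997 counts in WT sham and 3062, 3429, 3692 and 3788 in OE sham (-1.22 ± 0.10). Etfb had 1782, 2096, 1754 and 1795 in WT and 695.6, 720.8, 851.0 and 691.8 in OE (-1.33 ± 0.10), and 58.3% of its exon bases are shared on the same strand with Gm45233 and Mir7051; Gm45233 had 0 to 5.78 normalized counts in the 45 libraries. Etfdh stood at 41.2% of WT (-1.28 ± 0.12). The 3 genes of this step thus differed by 1.22 to 1.33 in log2, with no overlap in any of them.

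Acot2, a mitochondrial thioesterase that releases free fatty acids from acyl-CoA, had 967.4, 1492, 994.6 and 880.9 counts in WT sham and 273.2, 238.4, 337.9 and 407.1 in OE sham (29.0% of WT, -1.78 ± 0.21). Mlycd, which degrades malonyl-CoA, the inhibitor of carnitine palmitoyltransferase 1, had 1854, 2208, 2038 and 2030 in WT and 672.2, 625.6, 809.8 and 985.3 in OE (-1.41 ± 0.14, limma adjusted p = 1.2e-06). Acot13 stood at 58.4% of WT (-0.78 ± 0.10). The mitochondrial carrier gene Ucp3 had the lowest percentage of the 36 genes, 18.5% of WT (-2.56 ± 0.50), with WT libraries from 391.2 to 932.1 counts and OE libraries from 51.8 to 256.7. Pdk4, whose kinase blocks pyruvate oxidation and so favours fatty acids, ran from 3207 to 8258 counts in WT and from 3361 to 5040 in OE and was not called (-0.32 ± 0.75, limma adjusted p = 0.749).

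Among the regulators Ppara, the nuclear receptor that fatty acids activate, had 964.8, 1008, 665.0 and 763.2 counts in WT sham and 288.5, 304.0, 302.5 and 370.3 in OE sham, 37.2% of WT (-1.41 ± 0.18, limma adjusted p = 1.55e-05). Esrrg, the receptor ERR gamma, had 1097, 1053, 958.2 and 1073 in WT and 606.6, 613.6, 636.6 and 700.6 in OE (-0.71 ± 0.09, limma adjusted p = 1.05e-05). Esrra, ERR alpha, stood at 65.6% (-0.61 ± 0.10). The coactivator gene Ppargc1a stood at 38.2% of WT (-1.39 ± 0.45, limma adjusted p = 0.02) and Ppargc1b at 64.0% (-0.64 ± 0.17). Esrrb was nearest to WT, at 85.7% with overlapping libraries (-0.22 ± 0.09, limma adjusted p = 0.0455), and stood at 0.08 with reads scaled by library totals. Its call was also lost with edgeR, with TMM scaling and without the filter on low values. With a replicate block, and with the compared groups alone in the fit, 33 of the 36 genes were called lower. The median log2 difference was -0.68 over the 6 regulators and -1.28 over the 30 enzymes and carriers; these medians were not tested against each other.

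**Figure D2:**
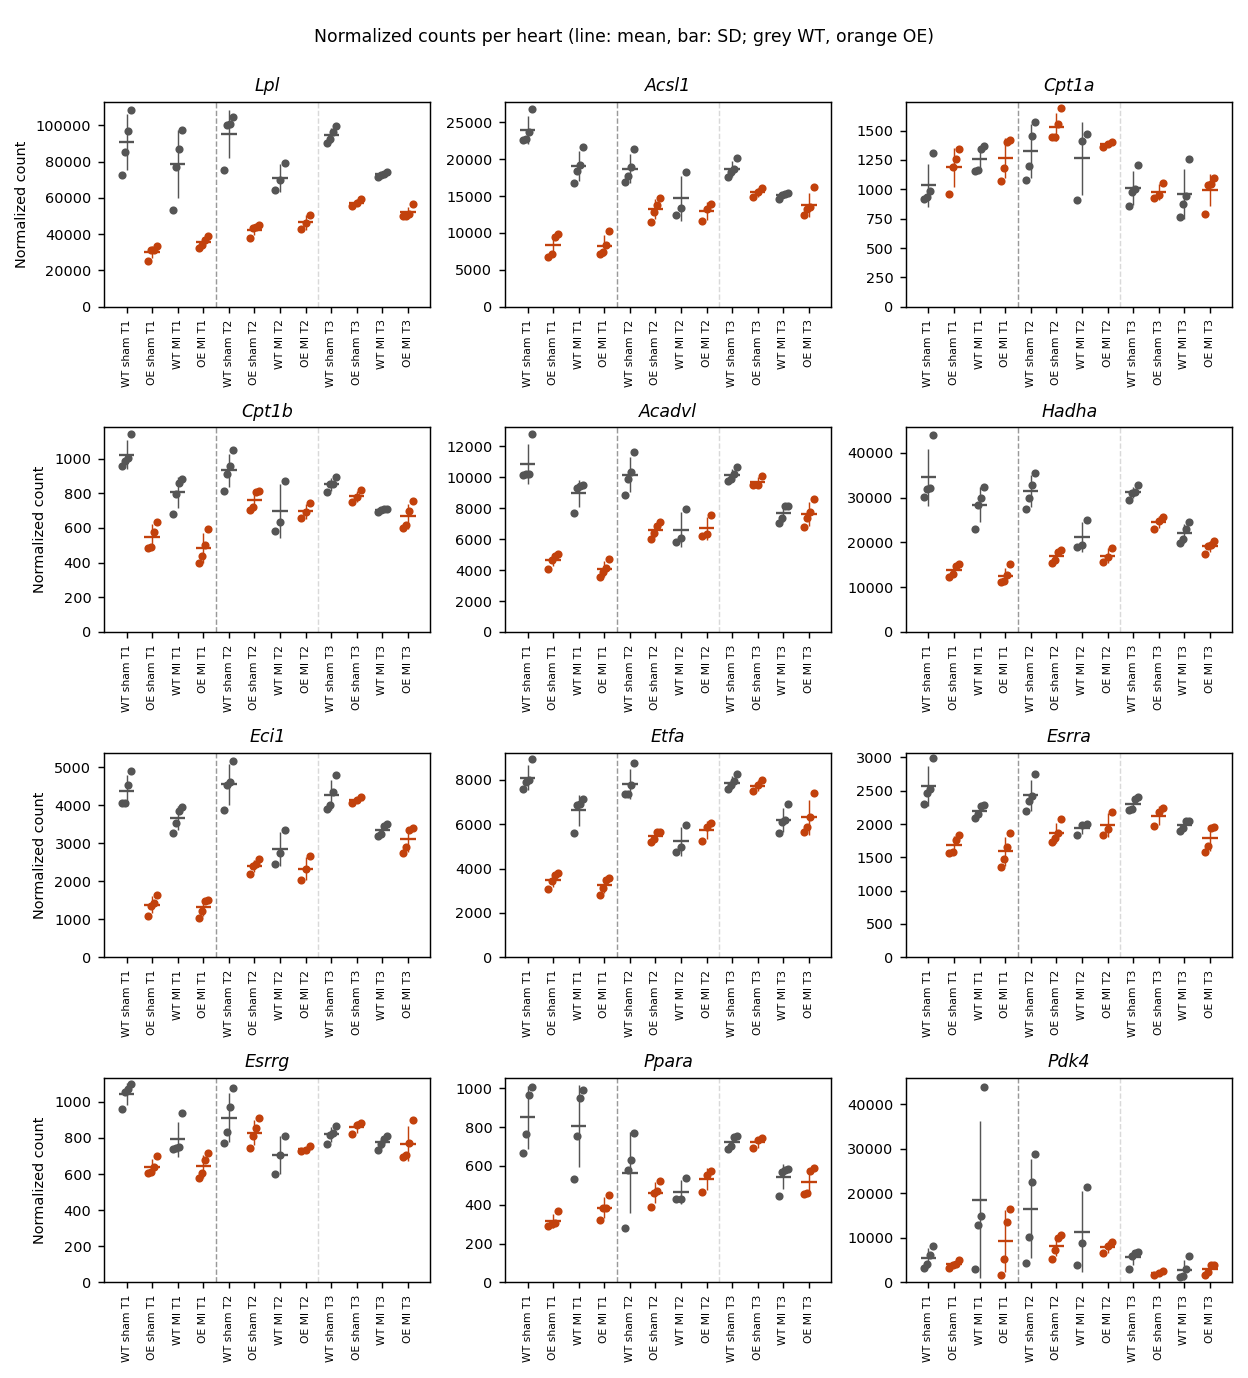
Normalized counts (vertical axes, from 0) of 12 genes in each library, by group (horizontal axes). Points are libraries, lines are means and bars are SD. WT is grey and OE orange. The dark dashed line parts the separately normalized T1 libraries from T2 and T3. In Lpl the OE points lie under the WT sham points at all 3 times, in Cpt1a the genotypes overlap at all 3 times, and Pdk4 spreads from 1154 to 43736 counts.

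The promoters of these genes were searched for binding elements of the 2 receptor families. RefSeq (GRCm38.p6) gave promoters for 29 of the 36 genes, 36 windows in all from 250 bases before to 50 after the start. The extended ERR element TNAAGGTCA was in 0 of the 36 windows on either strand, and in 1.28% of all 32851 promoters. The DR1 element of PPAR and RXR, a direct repeat of AGGTCA spaced by 1 base, was accepted with up to 2 mismatches and lay in 4 of the 36 windows (11.1%), against 3.86% of all promoters; no window held both motifs. A match is letters in a window and not a measured binding site. None of the 29 genes with a promoter held the ERR element, so the 4 upstream stretches of 250 bases shown here were chosen, after the search, because they hold the DR1 match, in capitals, which begins 83 bases before the start in Echs1, 77 in Etfa, 63 in Cd36 and 51 in Ucp3; in Etfa and Cd36 it reads on the opposite strand. They lie at chr7:140116422-140116671 (minus strand), chr9:55512244-55512493 (minus), chr5:17835897-17836146 (minus) and chr7:100472741-100472990 (plus), and run 5′ to 3′ toward the start.
Echs1: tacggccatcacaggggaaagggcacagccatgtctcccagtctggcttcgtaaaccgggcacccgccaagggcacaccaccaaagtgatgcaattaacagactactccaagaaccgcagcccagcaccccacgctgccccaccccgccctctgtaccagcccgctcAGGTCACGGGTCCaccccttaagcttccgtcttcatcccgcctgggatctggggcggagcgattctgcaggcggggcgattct
Etfa: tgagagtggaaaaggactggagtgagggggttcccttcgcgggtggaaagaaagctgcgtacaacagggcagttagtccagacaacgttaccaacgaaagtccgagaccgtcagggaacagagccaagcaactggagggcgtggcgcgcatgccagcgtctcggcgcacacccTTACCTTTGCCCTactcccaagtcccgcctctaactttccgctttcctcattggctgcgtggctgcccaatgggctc
Cd36: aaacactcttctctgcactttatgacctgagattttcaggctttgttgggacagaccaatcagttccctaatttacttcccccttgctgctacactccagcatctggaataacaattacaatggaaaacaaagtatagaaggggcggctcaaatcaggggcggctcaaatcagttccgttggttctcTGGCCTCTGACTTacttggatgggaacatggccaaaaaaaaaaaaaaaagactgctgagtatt
Ucp3: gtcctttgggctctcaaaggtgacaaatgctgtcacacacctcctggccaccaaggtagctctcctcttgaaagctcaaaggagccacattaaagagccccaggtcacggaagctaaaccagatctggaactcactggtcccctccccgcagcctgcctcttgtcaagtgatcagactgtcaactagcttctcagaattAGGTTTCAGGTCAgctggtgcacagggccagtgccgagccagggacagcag
At T1 in sham hearts all 4 of these genes fell, as did most members without a match.

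Hadha and Hadhb are transcribed away from each other, with RefSeq starts at 30154980 on the minus strand and 30155253 on the plus strand of chromosome 5, so 272 bases lie between. Most of that stretch is shown because the subunit genes had nearly the same log2 difference in each comparison of OE with WT, a choice made after their values were seen (chr5:30154981-30155230, minus strand; neither motif was found, so no base is in capitals).
Hadha: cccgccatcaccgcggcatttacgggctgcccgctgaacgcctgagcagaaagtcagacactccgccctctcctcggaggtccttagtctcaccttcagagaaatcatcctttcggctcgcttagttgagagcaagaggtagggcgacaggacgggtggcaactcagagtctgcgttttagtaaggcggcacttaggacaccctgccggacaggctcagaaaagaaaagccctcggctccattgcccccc
Their log2 differences of OE from WT sham were -1.31 and -1.28 at T1, -0.89 and -0.83 at T2, and -0.35 and -0.40 at T3. In MI hearts they were -1.18 and -1.15, -0.31 and -0.24, and -0.20 and -0.26.

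Beyond the 36 genes, 82 further genes of lipid handling were looked up at T1 in sham hearts. Of these 9 rose and 51 fell (median -0.48), where 24% of all genes were called higher and 23.3% lower. All 11 called genes of triglyceride storage and lipolysis, of 14 listed, fell; Dgat2, which makes triglyceride, was at 1585 in OE and 6565 in WT (-2.08 ± 0.27) and the lipid droplet gene Plin5 at 587.0 and 2252 (-2.00 ± 0.26). All 11 called genes of peroxisomal oxidation, of 13 listed, fell too, among them Phyh (-1.23 ± 0.09) and Abcd3 (-0.78 ± 0.09). Of 14 further genes of uptake, carnitine transport and activation 3 rose and 5 fell. The carnitine-acylcarnitine translocase gene Slc25a20 fell (-1.01 ± 0.14), as did the lipoprotein receptor gene Vldlr (-1.24 ± 0.17), while Acsl5 rose (0.60 ± 0.09) and Slc27a6 rose from 6.28 to 29.2 counts (2.07 ± 0.38).

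Of 14 other thioesterases, dehydrogenases and genes of fuel choice 2 rose and 11 fell. Pdk3 rose (1.80 ± 0.21) and Pdk2, another pyruvate dehydrogenase kinase gene, fell (-1.16 ± 0.12). Pdp2, whose phosphatase reactivates pyruvate dehydrogenase, fell from 767.5 to 163.3 counts (-2.23 ± 0.27), and Acot9 rose (1.02 ± 0.15). Among 10 genes of malonyl-CoA and fatty acid synthesis, whose called shares were near those of all genes, 2 rose (Elovl1 0.76 ± 0.09, Acly 0.29 ± 0.10) and 2 fell (Acacb, which makes malonyl-CoA at the mitochondrion, -1.001 ± 0.15, and Me1 -0.60 ± 0.11). Among 17 other regulators 2 rose, Hif1a (0.99 ± 0.13) and the AMPK subunit gene Prkag2 (0.85 ± 0.14), and 11 fell, among them Rxrg (-1.43 ± 0.14) and the muscle PGC-1 partner Perm1 (-1.08 ± 0.13). In sham hearts at T2 5 of the 82 rose and 38 fell, where 11.8% of all genes were called higher and 13.6% lower. At T3 1 rose and 11 fell, where 6.54% were called higher and 6.57% lower.

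Injured hearts at T1 gave a similar count. OE against WT MI gave 33 lower and 0 higher of the 36, where 15.2% of all genes were called lower and 14.7% higher, with a median of -1.10. The genes not called were Cpt1a (0.01 ± 0.13), Pdk4 (-0.88 ± 0.75) and Esrrb (-0.04 ± 0.09). Acaa2 (30.5% of WT), Ech1 (30.3%) and Eci1 (35.8%) were again among the lowest, and Lpl had 86841, 97653, 77184 and 53141 counts in WT MI against 39139, 34292, 32374 and 36707 in OE MI (-1.11 ± 0.16). The call of Ppargc1a (-1.46 ± 0.45) was lost without WT MI replicate 2 or 3 or without OE MI replicate 1 or 2; its 4 WT MI libraries spread from 1932 to 11997 counts. Of the cardiomyocyte markers 8 of 12 fell and 1 rose in this comparison (sums 1075250 to 1155430 in WT MI and 736504 to 865493 in OE MI). Of the fibroblast markers 7 of 10 rose (77323 to 144006 and 159440 to 219322) and 1 of 8 endothelial markers fell, and the part of these shifts was not tested. The test of whether the OE effect differed between sham and MI called 0 of the 36 genes in limma, where 0.0911% of all genes were called; 1 had an unadjusted p under 0.05, and edgeR and DESeq2 called 0 each.

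At T2, 2 weeks after overexpression, most of the genes were still lower in OE sham hearts, by less. Of the 36, 29 fell and 0 rose, where 13.6% of all genes were called lower and 11.8% higher, and the median was -0.56 (-0.35 with library totals). Their share of nuclear gene reads was 3.09% ± 0.35 in WT sham and 2.07% ± 0.13 in OE sham. Lpl had 75508, 100618, 104603 and 99927 counts in WT and 43131, 38044, 43779 and 44954 in OE, 44.6% of WT (-1.16 ± 0.08, limma adjusted p = 3.93e-10). Eci1 was next by adjusted p after Hadha, with 3883, 4606, 5176 and 4523 counts in WT and 2446, 2188, 2397 and 2586 in OE (-0.91 ± 0.10, limma adjusted p = 1.74e-07). Hadha had 27392, 29780, 35562 and 32827 in WT and 15960, 15459, 17909 and 18318 in OE (-0.89 ± 0.09, limma adjusted p = 1.38e-07). None of these 3 genes had overlapping groups.

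The other subunit gene, Hadhb (-0.83 ± 0.10), Hadh (-0.77 ± 0.10) and Etfb (-0.82 ± 0.10) fell to 56.3%, 58.9% and 55.7% of WT. Hadh had 11194, 13184, 11523 and 11953 counts in WT and 6479, 5983, 7220 and 8498 in OE. The genes not called were Fabp3, Cpt1a, Ucp3, Pdk4, Ppara, Ppargc1b and Esrrg, 3 of the 6 regulators among them. Ppara, which had fallen to 37.2% of WT at T1, stood at 81.5% (-0.21 ± 0.19, limma adjusted p = 0.46), with WT libraries of 771.5, 578.0, 280.6 and 632.7 counts and OE libraries of 471.8, 390.5, 522.1 and 460.6. Esrrg stood at 90.9% (-0.13 ± 0.09) and Esrra, which fell, at 76.7% (-0.38 ± 0.08). In the same comparison 8 of 12 cardiomyocyte markers fell and 1 rose (median -0.33; sums 1059510 to 1216910 in WT and 950074 to 1034950 in OE) and 9 of 10 fibroblast markers rose (27545 to 30456 and 50895 to 52716). Of 8 macrophage markers 2 fell (4825 to 7733 and 4192 to 4807); their part in the result was not tested.

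**Figure D3:**
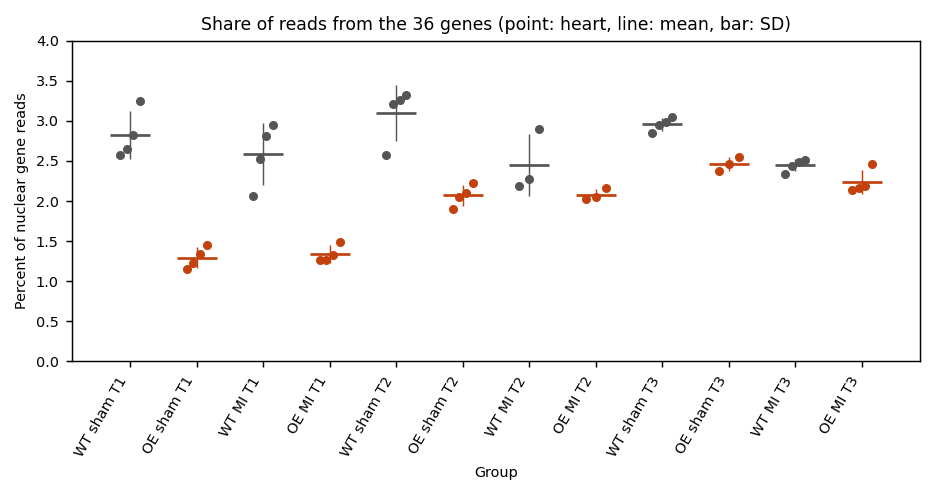
Share of reads on nuclear genes that came from the 36 genes (vertical axis, percent, from 0) in each library by group, with lines for means and bars for SD; WT is grey and OE orange. Means in sham hearts are 2.83% in WT and 1.29% in OE at T1, 3.09% and 2.07% at T2, and 2.96% and 2.46% at T3.

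At T3, 4 weeks after overexpression, limma called 8 of the 36 genes lower and 0 higher in OE sham hearts, where 6.57% of all genes were called lower and 6.54% higher, and the median was -0.18 (-0.075 with library totals). The 8 were Lpl, Ech1, Hadha, Hadhb, Echs1, Eci2, Etfb and Mlycd. Lpl had 92218, 96280, 90144 and 99623 counts in WT sham and 57191, 59473 and 55702 in OE sham, 60.8% of WT (-0.72 ± 0.09, limma adjusted p = 6.35e-06). Ech1 had 20478, 19893, 22344 and 22067 in WT and 11244, 14813 and 11485 in OE, 59.0% of WT (-0.77 ± 0.16, limma adjusted p = 0.00221). Mlycd had 1665, 1934, 1617 and 1954 in WT and 1131, 1286 and 1113 in OE (-0.60 ± 0.15, limma adjusted p = 0.00939). In all 3 the OE libraries lay under the WT libraries.

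The other 5 differed by less. Hadha had 30925, 31326, 29518 and 32705 counts in WT and 22974, 24779 and 25565 in OE (-0.35 ± 0.10, limma adjusted p = 0.0182), and Hadhb 5904, 5678, 5650 and 6080 against 4248, 4507 and 4512 (-0.40 ± 0.10, limma adjusted p = 0.0117). Echs1 had 6405, 6289, 6886 and 6959 in WT and 5301, 5787 and 4530 in OE (-0.36 ± 0.08, limma adjusted p = 0.00395). Etfb (-0.36 ± 0.11) and Eci2 (-0.35 ± 0.10) were called at limma adjusted p of 0.0239 and 0.0217. With 3 OE sham libraries, the count was 4 without OE sham replicate 1 and 4 without replicate 3; Lpl and Ech1 kept their call whichever library was left out. Fitted on the 2 groups alone, 14 were lower and 1 higher. In this comparison 2 of 12 cardiomyocyte markers fell and 1 rose, 0 of 10 fibroblast markers were called, 3 of 8 endothelial markers fell (18207 to 18766 in WT, 16192 to 16429 in OE) and 2 of 6 adipocyte markers fell (803.1 to 1921 and 358.3 to 489.9). Lpl is made by adipocytes too, and the part of the adipocyte markers in its value was not tested.

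Several genes stood near WT at T3. Eci1, at 31.5% of WT at T1 and 52.9% at T2, was level with it (-0.04 ± 0.10), with 4786, 3998, 3907 and 4361 counts in WT and 4066, 4132 and 4210 in OE. Acadvl was at 95.6% (-0.06 ± 0.10), Etfa at 98.2% (-0.03 ± 0.09), Cpt2 at 104.0% (0.05 ± 0.12) and Ppara at 99.9% (-0.00 ± 0.20). Acads was above WT with no overlap, 3818, 3550, 3613 and 3757 counts in WT against 4495, 3982 and 4831 in OE, and was not called (0.26 ± 0.10, limma adjusted p = 0.0771); by library totals it was called higher (0.36 ± 0.09, limma adjusted p = 0.00718), as was Fabp3 (0.31 ± 0.10, limma adjusted p = 0.0355). Pdk4 (37.7% of WT) and Ucp3 (39.2%) had no overlap either and were not called (limma adjusted p = 0.156 and 0.106).

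The change of the OE effect with time was tested directly. From T2 to T3 in sham hearts the OE effect of 17 genes became less negative and that of 0 more so, where 6.19% of all genes were called in that direction and 6.11% in the other. The largest change was that of Eci1 (0.88 ± 0.14, limma adjusted p = 0.000448), followed by Decr1 (0.65 ± 0.17), Acads (0.62 ± 0.14) and Cpt2 (0.60 ± 0.16). The count was 11 without OE sham T2 replicate 2, 11 without OE sham T3 replicate 3 and 10 with library totals. Ech1 (0.17 ± 0.22), Echs1 (0.20 ± 0.11), Eci2 (0.23 ± 0.14) and Mlycd (-0.09 ± 0.21), which were lower in OE sham at T3, were not among the 17. In MI hearts limma called 0 genes, as over all genes (0%); 0 of the 36 had an unadjusted p under 0.05, and edgeR and DESeq2 called 0.

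From T1 to T3, with the reads of both tables scaled together, the OE effect became less negative for 31 genes in sham hearts, where 18% of all genes were called in that direction and 18.8% in the other. In MI hearts it did so for 29 genes, where the shares were 11.2% and 9.27%. It became more negative for 0 in both. The medians were 0.95 and 0.96. Eci1 (1.62 ± 0.17 in sham, 1.38 ± 0.16 in MI), Hadh (1.46 ± 0.20 and 1.10 ± 0.19), Acaa2 (1.42 ± 0.23 and 1.59 ± 0.22), Acadm (1.35 ± 0.16 and 1.23 ± 0.15) and Etfa (1.18 ± 0.13 and 1.06 ± 0.13) were among them. In sham hearts Cpt1a (-0.26 ± 0.22), Pdk4, Ucp3, Ppargc1a and Ppargc1b were not called. The T1 and T3 libraries were in separate tables, so time and table cannot be told apart in these differences.

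Lpl was the gene called lower in OE in all 6 comparisons with WT, sham and MI, at T1, T2 and T3. In MI hearts it was the single member called at T2, with 64171, 69764 and 79413 counts in WT and 45930, 50748 and 42732 in OE (-0.61 ± 0.10, limma adjusted p = 0.00107), where 1.15% of all genes were called lower and 0.406% higher. It was not called there when those 2 groups alone were fitted. At T3 in MI hearts it was again the single member, with 71375, 72641, 73439 and 74407 counts in WT and 49873, 51390, 50202 and 56628 in OE (-0.49 ± 0.08, limma adjusted p = 0.000895), where 2.09% of all genes were called lower and 1.2% higher. OE and WT libraries did not overlap in any of the 6 pairs. Of the 36 genes, 8 at T2 and 10 at T3 had an unadjusted limma p under 0.05 in MI hearts. The OE effect there was negative for 25 genes at T2 and 28 at T3. In MI hearts 4 of 8 macrophage markers fell in OE against WT at T2, with sums of 7867 to 13037 in WT and 5274 to 5752 in OE, and 1 cardiomyocyte marker of 12 rose. At T3 1 macrophage marker and 2 cardiomyocyte markers fell; the part of these shifts in the values of Lpl was not tested. Per kilobase of all annotated exons joined, Lpl stood at 8672 ± 1477 normalized counts in WT sham at T1. By that length it was in the upper range of the 36 genes.

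Injury was the other arm of the design. At T1 in WT hearts the 36 genes had a median log2 difference of MI from sham of -0.27 (-0.17 with library totals), and 1 was called lower, Esrrg, where 1.49% of all genes were, and 4.31% were called higher. The median over all genes tested was -0.0242. Before adjustment 19 of the 36 had a limma p under 0.05, and 33 differences were negative. Esrrg had 1097, 1053, 958.2 and 1073 counts in sham and 937.8, 740.8, 743.0 and 748.8 in MI (-0.40 ± 0.09, limma adjusted p = 0.0178). The call was lost without WT sham replicate 2 or 4 or WT MI replicate 3, the count then being 0, and 4 genes were called without WT MI replicate 1. In the WT hearts 2 of 12 cardiomyocyte markers fell with MI, 9 of 10 fibroblast markers rose (sums 37883 to 43060 in sham and 77323 to 144006 in MI) and 5 of 8 macrophage markers rose; their part was not tested. In OE hearts at T1 limma called 0 of the 36, where 0.0065% of all genes were called; 3 had an unadjusted p under 0.05, and edgeR and DESeq2 called 0.

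At T2 injury was associated with a broad fall in WT hearts and none that passed the test in OE hearts. In WT, 28 of 36 genes fell and 0 rose, where 10.4% of all genes were called lower and 11.4% higher (median -0.46). Etfa had 7370, 7761, 8760 and 7353 counts in WT sham and 4980, 4759 and 5985 in WT MI (-0.58 ± 0.09, limma adjusted p = 4.88e-05). Eci1 had 3883, 4606, 5176 and 4523 in sham and 2459, 2745 and 3349 in MI (-0.68 ± 0.10). Acadvl had 8874, 9865, 11629 and 10323 in sham and 6097, 5819 and 7943 in MI (-0.63 ± 0.10). In each of these 3 the groups were apart, with WT MI replicate 4 the highest MI library. The count was 17 without WT MI replicate 2 and 12 when those 2 groups alone were fitted.

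In OE hearts at T2 limma called 0 of the 36 for injury, where 0.0258% of all genes were called; 1 had an unadjusted p under 0.05, and edgeR and DESeq2 called 0. Etfa had 5342, 5208, 5656 and 5656 counts in OE sham and 5884, 6064 and 5261 in OE MI (0.07 ± 0.09), and Acadvl 6393, 6023, 6849 and 7111 against 6232, 7565 and 6309 (0.02 ± 0.10). These groups overlapped. OE sham hearts were already lower than WT sham hearts at this time: the 36 genes took 3.09% of nuclear gene reads in WT sham, 2.45% ± 0.385 in WT MI, 2.07% in OE sham and 2.08% ± 0.0708 in OE MI.

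The difference between the genotypes in their response to injury was tested by the interaction, and 12 of the 36 genes were called, all with a less negative response in OE, where 2.39% of all genes were called in that direction and 2.54% in the other. They were Lpl (0.54 ± 0.13), Crat (0.56 ± 0.13), Acadvl (0.65 ± 0.14), Acadm (0.42 ± 0.12), Hadha (0.58 ± 0.14), Hadhb (0.58 ± 0.15), Echs1 (0.44 ± 0.11), Eci1 (0.63 ± 0.15), Etfa (0.65 ± 0.12, limma adjusted p = 0.00872), Etfb (0.74 ± 0.15, limma adjusted p = 0.0106), Etfdh (0.48 ± 0.14) and Esrra (0.41 ± 0.12). The count rests on few libraries: it was 1 without OE MI replicate 3, 2 without WT MI replicate 3, 7 without OE sham replicate 2 and 23 without WT MI replicate 4. Without OE MI replicate 3 the single gene called was Etfa. With the 4 groups of T2 alone in the fit 6 were called. Cardiomyocyte markers moved alongside, with 9 of 12 lower and 0 higher in MI than in sham in WT (sums 1059510 to 1216910 in sham and 775321 to 942459 in MI) and 0 called in OE (950074 to 1034950 and 884611 to 1110310). Fibroblast markers were higher for 10 of 10 in WT, with sums of 27545 to 30456 in sham and 62093 to 87606 in MI, and ran from 50895 to 52716 in OE sham and from 50556 to 68158 in OE MI. In the interaction itself the cardiomyocyte markers Myh6 (0.65 ± 0.16), Tnni3 (0.59 ± 0.16) and Myl2 (0.53 ± 0.14) were called, with a less negative response in OE. All fibroblast markers but Tcf21 were called in the other direction, from Pdgfra (-0.69 ± 0.15) to Fn1 (-1.93 ± 0.43). The part of these markers in the interaction of the 36 genes was not tested.

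**Figure D4:**
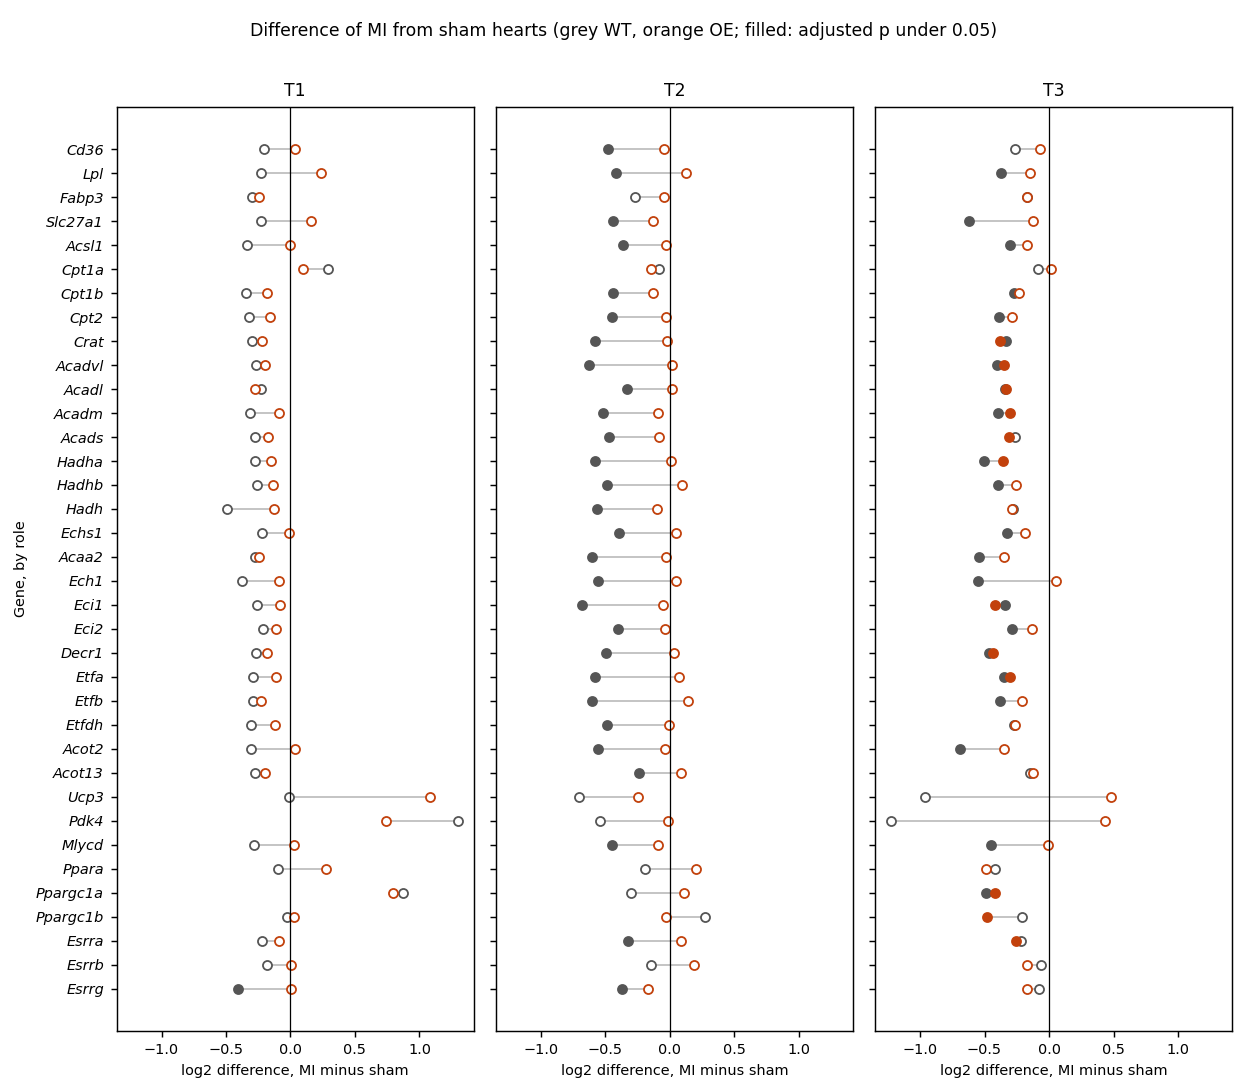
Log2 difference of MI from sham hearts (horizontal axes) for the 36 genes (vertical axis, by role) at T1, T2 and T3, with WT in grey and OE in orange and filled points where the limma adjusted p was under 0.05. At T2 there are 28 filled WT points and 0 filled OE points, and at T3 24 and 12.

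At T3 the responses to injury lay closer together. In WT, 24 of 36 genes fell and 0 rose, where 6.67% of all genes were called lower and 8.25% higher (median -0.35). In OE, 12 fell and 0 rose, where 7.99% of all genes were called lower and 11.1% higher (median -0.25). Acadm had 22767, 21648, 21492 and 22247 counts in WT sham and 15578, 18431, 15935 and 17336 in WT MI (-0.39 ± 0.08), and 18766, 19130 and 19886 in OE sham against 14365, 15380, 16520 and 16391 in OE MI (-0.30 ± 0.09). The MI libraries lay under the sham libraries in both genotypes. Crat (-0.33 ± 0.08 in WT, -0.38 ± 0.09 in OE), Eci1 (-0.34 ± 0.10 and -0.42 ± 0.10), Decr1 (-0.47 ± 0.11 and -0.43 ± 0.12) and Ppargc1a (-0.49 ± 0.12 and -0.42 ± 0.13) also fell in both. Markers moved with injury at T3 too. Cardiomyocyte markers fell for 5 of 12 in WT (sums 1071450 to 1177360 in sham and 881661 to 1017100 in MI) and for 4 in OE (1045710 to 1122130 and 867490 to 1031920). Fibroblast markers rose for 7 of 10 in WT (27896 to 31216 and 42256 to 61242) and for 8 in OE (25504 to 28441 and 36818 to 64333), and macrophage markers for 8 of 8 in both. In OE 5 of 6 adipocyte markers also rose and 1 of 8 endothelial markers rose, where in WT 1 endothelial marker fell. The part of these shifts in the fall of the 36 genes was not tested. The interaction called 0 of the 36 in limma, where 0.00644% of all genes were called; 3 had an unadjusted p under 0.05, and edgeR and DESeq2 called 0. With library totals the medians were -0.16 in WT and -0.09 in OE, where those of all genes were 0.18 and 0.154. The OE count was 2 without OE MI replicate 1, 6 without OE sham replicate 3 and 7 without OE sham replicate 2, and with library totals 7 genes were called in WT and 2 in OE.

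Pdk4, Ucp3 and Ppargc1a spread widely within groups. Pdk4 had 12823, 43736, 14878 and 2953 counts in the 4 WT MI libraries of T1 and 4478, 22584, 10271 and 28823 in the 4 WT sham libraries of T2. Ppargc1a had 3100, 11997, 6784 and 1932 in the same WT MI libraries of T1, so replicates 2 and 3 were high for both. Ucp3 had 845.2, 2175, 1640 and 2604 in the WT sham libraries of T2, which put the 4 libraries in the same order as Pdk4. Limma called Pdk4 in 0 of the 19 comparisons; its SE was 0.57 to 1.06 in all of them.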

How the data were processed

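Poly(A) RNA of perfused, frozen and powdered whole hearts was sequenced, per the labels' protocols. Per the submitters' processing notes the tools were cutadapt, STAR, HTSeq and DESeq2 with GRCm38, without versions. The authors deposited normalized counts per gene (a signal, 2 tables normalized separately), beside log2 fold changes and p-values of their own that were not used. Every value came back as whole reads within 0.1 read. Values were tested as log2(normalized count + 1) with limma 3.58.1 (trend, robust, R 4.3.3) over all genes with 10 or more in at least 3 libraries, all groups of a table in 1 fit, Benjamini-Hochberg adjusted, threshold 0.05. For T1 against T3 the recovered reads of both tables were scaled together by median of ratios. edgeR 4.0.16 and DESeq2 1.42.0 on recovered reads, other scalings, pseudocounts and filters, a replicate block, fits on the compared groups and leaving out each library were alternatives. The limma step was tested on counts simulated with the same dispersion for all genes, in OE against WT sham at T1 and T3 only. Genes of wide spread and differences of effects were not simulated. Values per library were given for the 2 members of smallest p per role in OE against WT sham T1, for members that went against their role group, for members called at T2 or T3 (up to 6 each way) and for members called in a difference of effects (up to 3 each); other values per library were added after being seen. Of the other pathway lists up to 2 called genes each way were named. The 36 genes, the other lists and the rules were chosen with earlier results of these data known. Reads of 14199741 to 19015856 per library set the precision, and intervals reflect the spread between libraries.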

Additional observations from a re-analysis of the deposited data

Results flagged for a closer look

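In 9 of 180 sets of 4 libraries, 1 library stood apart from the other 3 by Dixon's criterion; chance gives about 1 in 20. In WT sham at T1 replicate 2 was the high library in 4 of them: Acadvl 12769.52 (next 10229.24), Etfb 2096.38 (next 1794.62), Hadha 43985.88 (next 32208.06) and Hadhb 8208.16 (next 6312.29). In WT MI at T1, Acadvl was low in replicate 4 at 7678.59 (next 9314.61) and Esrrg high in replicate 1 at 937.8 (next 748.77). Lpl was low in WT sham T2 replicate 1 at 75507.57 (next 99926.94). In WT MI T3 replicate 1, Mlycd was high at 1642.54 (next 1242.85) and Ppara low at 447.04 (next 566.63).

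Differences between groups that passed limma's test of the difference itself are given for the 3 genes of smallest adjusted p in each comparison. The response to injury at T2 was less negative in OE than in WT by 0.647 for Etfa, 0.738 for Etfb and 0.648 for Acadvl on the log2 scale. In sham hearts the OE effect was less negative at T3 than at T2 by 0.875 for Eci1, 0.624 for Acads and 0.557 for Acadvl. It was less negative at T3 than at T1 by 1.62 for Eci1, 1.18 for Etfa and 1.35 for Acadm in sham hearts, and by 1.38, 1.06 and 1.23 for the same genes in MI hearts.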

How the results depend on the processing

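Over the alternatives the count of the 36 genes called moved by more than 1.5 times in these cases. For injury in WT at T1 it was 3 with DESeq2 and 0 to 4 with 1 library left out. With the compared groups alone in the fit it was 0 for OE against WT MI T2, 12 for injury in WT at T2, 6 for the interaction at T2 and 15 for OE against WT sham T3. With library totals it was 2 for OE against WT MI T3, 7 and 2 for injury in WT and OE at T3, and 10 for sham T3 minus T2; that scaling put the median of all genes in OE against WT sham T1 at 0.315, in place of 0.0145, and turned Esrrb there to 0.0806. Leaving out 1 library gave 17 to 29 for injury in WT at T2, 1 to 23 for the interaction at T2, 4 to 9 for OE against WT sham T3, 2 to 17 for injury in OE at T3 and 11 to 17 for sham T3 minus T2. Of 260 called values of single genes, 252 kept direction and call with edgeR, 260 with DESeq2, 251 with TMM scaling, 193 with library totals, 260 and 259 with pseudocounts of 0.5 and 5, 251 without a filter and 227 with the compared groups alone; of 2670 with 1 library left out, 2405 did. The cause of these moves was not tested. Libraries with the same number did not clearly deviate together (correlations at T1 from -0.35 to 0.25). That cannot exclude a weak pairing, and no label states a pairing. With the replicate block the counts were 33 for OE against WT sham T1 and 12 for the interaction at T2. Of 260 values 255 kept their call with it.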
